A study of Mus musculus with 15 samples.

Results

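The homeobox genes of the Hoxa, Hoxb, Hoxc and Hoxd clusters, with Cdx1, Cdx2 and Cdx4, were described across 15 RNA-seq libraries of sorted, differentiated mouse embryonic stem cells. Members were taken by symbol: Hoxa, Hoxb, Hoxc or Hoxd followed by digits only, plus the 3 Cdx genes. This gave 42 of the 24034 genes kept from the count table: 11 Hoxa, 10 Hoxb, 9 Hoxc, 9 Hoxd and 3 Cdx genes. The choice did not use their values.

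The cells carried lacZ reporters driven by regulatory elements of Endoglin (Eng), which encodes an accessory TGF-beta family receptor found on endothelium and early blood progenitors, and each of the 5 sorted groups had 3 libraries numbered 1 to 3. FLK1+ LacZ- and FLK1+ LacZ+ cells carried a reporter with the Eng promoter and 3 of its enhancers, those at -8, +7 and +9 kb. These are mesodermal cells, FLK1 being the VEGF receptor encoded by Kdr. The other 3 groups, labelled HEI, carried a second reporter, in which the promoter is paired only with the -8 kb enhancer, an element that according to the design text is active in haemogenic endothelium, the endothelial cells from which blood cells arise. They were sorted by ENG and by FDG, a fluorogenic substrate commonly used to detect the lacZ product, into ENG+FDG-, ENG+FDG+ and ENG-FDG+ cells. All groups thus carried an Eng-driven lacZ reporter, and the FLK1+ and HEI groups differed in reporter line as well as in stage, so that stage and line cannot be told apart. The sources used here do not give the number of clones per line, the culture days or the gates, and nothing says whether replicates were separate cultures, so p-values measure only the spread between these libraries.

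Hox genes encode homeodomain transcription factors that give cells their position along the head-to-tail axis. Genes of 1 paralogue number in different clusters descend from a common ancestor, and low numbers lie at the end of a cluster that is generally activated first and furthest towards the head. CDX factors are homeodomain proteins of the posterior embryo that act on Hox genes, and both CDX and HOX factors are known to take part in the formation of early blood cells. In the text below, numbers 1 to 3 are called anterior, 4 to 8 central and 9 to 13 posterior.

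Library totals ran from 9673396 to 16337785 counts. Eng itself was at 180 to 962 CPM (counts scaled by edgeR to a common library size) in the 6 ENG+ libraries and at 39.4 to 161 CPM in the 3 ENG- libraries, lower in ENG- than in both ENG+ fractions within each replicate number. The 8 endothelial markers summed to 2040 to 5690 CPM in HEI libraries and 349 to 763 CPM in FLK1+ libraries, where most of the sum was Kdr (319 to 715 CPM). Ptprc, the pan-leukocyte CD45 gene, was at or below 0.509 CPM throughout. Replicate 1 stood apart from replicates 2 and 3 in every group (correlation of log2 levels across genes 0.864 to 0.933, against 0.987 to 0.99 between replicates 2 and 3). Replicate 1 of the ENG-FDG+ fraction stood apart further: its 6 smooth muscle and mesenchyme markers summed to 5050 CPM, against 111 to 761 CPM in the other 14 libraries, and 13954 genes were detected in it, against at least 15440 elsewhere.

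Of the 42 members, 20 had enough counts to be tested among 13662 genes, among them Hoxa13, Hoxb1 to Hoxb9, Hoxd1, Hoxd3, Hoxd4, Hoxd8, Hoxd9, Hoxd10 and Hoxd13, and Cdx2 and Cdx4, but no Hoxc gene. The other 22 were at or below 75 counts in every library, and 14 of the 42 never exceeded 10. Hoxc11 and Hoxd12 had no count in any library, which allows up to 3 counts in each and covers counting error only. The filter used the counts themselves, so a gene could pass through the group in which it was high.

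On a length-scaled scale (CPM per kb of exon), levels were concentrated in the Hoxb and Hoxd clusters. Hoxb5 had the highest mean level over all libraries (6.95 CPM per kb), followed by Hoxd8 (5.2), Hoxb4 (4.69), Hoxb3 (4.68), Hoxd9 (3.42) and Hoxd1 (3.06). Cdx4 was at 2.33, Hoxb2 at 2.12 and Hoxb1 at 1.89 CPM per kb. With the longest transcript in place of the exon union Hoxb3 came second, so the order of these neighbours depends on the length used. The order also differed between stages. In FLK1+ LacZ- cells the highest length-scaled means were those of Cdx4 (6.32), Hoxb1 (4.92), Hoxd1 (4.28), Hoxb3 (4.2) and Hoxd9 (4.17), and in ENG+FDG+ cells those of Hoxb5 (12.1), Hoxb4 (7.36), Hoxb3 (5.85) and Hoxd8 (5.38).

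**Figure D1:**
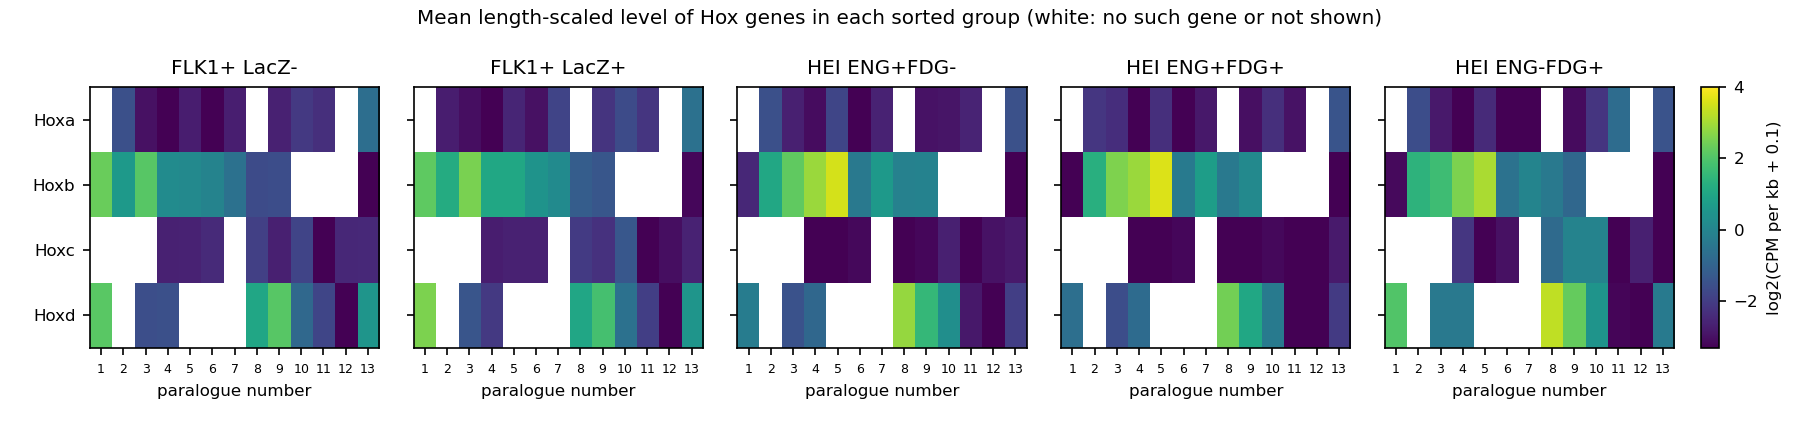
Mean length-scaled level of the Hox genes shown, as log2(CPM per kb + 0.1), with clusters in rows, paralogue numbers in columns and 1 panel per sorted group (3 libraries each). The bright cells lie in the Hoxb and Hoxd rows. Hoxb1 is bright in both FLK1+ panels and dark in the 3 HEI panels, and Hoxb5 and Hoxd8 are brightest in the HEI panels.

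Summed over a cluster, Hoxb genes stood at 18.9 to 83.1 CPM in the 6 FLK1+ libraries and at 53.1 to 106 CPM in the 9 HEI libraries, so the ranges overlapped. Hoxd genes summed to 24.5 to 33 CPM in FLK1+ libraries, 16.8 to 41.6 CPM in the ENG+ HEI libraries and 43 to 64 CPM in ENG-FDG+ libraries. The Cdx sum was 14.4 to 24.6 CPM in FLK1+ libraries and at most 3.56 CPM in HEI libraries.

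The widest comparison set the mean of the 3 HEI fractions against the mean of the 2 FLK1+ groups. Cdx4, Cdx2, Hoxb1, Hoxd1 and Hoxd13 fell, and Hoxb4, Hoxb5, Hoxb8, Hoxb9, Hoxd4 and Hoxd8 rose. That is 11 of the 20 tested members past an adjusted p of 0.05 (edgeR quasi-likelihood test), 6 higher and 5 lower, where 37.3% of all tested genes were called (17% higher and 20.3% lower). By class, 0 of 6 anterior genes rose and 2 fell, 5 of 7 central genes rose and none fell, and of 5 posterior genes 1 rose and 1 fell. Median log2 differences were 0.01, 1.52 and −0.37 in the 3 classes, against −0.11 over all tested genes. In bulk samples, fewer cells expressing a gene and less RNA per cell cannot be told apart.

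The largest fall among the members was that of Cdx4. This gene, which acts with Cdx1 and Cdx2 upstream of Hox genes and is known from its role in embryonic blood formation, was at 2.73, 18.3 and 16.2 CPM in LacZ- libraries 1 to 3 and at 2.11, 14.7 and 14.4 CPM in LacZ+ libraries. In the 9 HEI libraries it had 2 counts in all, 1 each in replicate 2 of ENG+FDG- and of ENG+FDG+. The groups did not overlap, and replicate 1 was the low library of both FLK1+ groups. Summed counts were 732 in FLK1+ and 2 in HEI libraries, a scaled ratio of 561 (95% interval 155 to 4640, counting error only), and the fitted difference was −8.86 ± 0.85 log2 (SE, adjusted p = 1.48e-05).

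Cdx2, a factor of trophectoderm, posterior embryo and gut, was at 9.89, 6.28 and 5.38 CPM in LacZ- and at 16, 4.9 and 6.16 CPM in LacZ+ libraries. In HEI cells it was at 0.243, 0.0881 and 0 CPM in ENG+FDG-, at 0.13, 0 and 0 CPM in ENG+FDG+, and 3.31, 0.0962 and 0 CPM in ENG-FDG+ libraries. Here replicate 1 was the high library of both FLK1+ groups, unlike for Cdx4, and 39 of the 47 HEI counts came from replicate 1 of ENG-FDG+. The groups did not overlap, and the difference was −5.25 ± 0.85 log2 (adjusted p = 0.000328), or −6.67 without that library. Cdx1, the third member of the family, was too low to be tested: 25, 0 and 4 counts in LacZ-, 15, 3 and 0 counts in LacZ+, and 0 in all HEI libraries but replicate 1 of ENG-FDG+ with 3. The scaled ratio of its summed counts was 24 (7.73 to 121), and with no filter on low counts it passed (adjusted p = 0.0211).

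Among anterior genes, Hoxb1, known for its action in the hindbrain and in early mesoderm, was at 4.77, 18.8 and 10.7 CPM in LacZ- and 4.41, 14.1 and 12.3 CPM in LacZ+ libraries. In HEI libraries it had 7 counts in all, 6 of them in replicate 3 of ENG+FDG- (0.52 CPM) and 1 in replicate 2 of ENG-FDG+ (0.0962 CPM). All HEI libraries lay below all FLK1+ libraries, with a scaled count ratio of 157 (75.8 to 392) and a fitted difference of −8.02 ± 0.84 log2 (adjusted p = 2.84e-05). Its neighbours in the cluster were not called: Hoxb2 differed by 0.36 ± 0.30 log2 (adjusted p = 0.375) and Hoxb3 by −0.15 ± 0.50 (adjusted p = 0.844).

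Hoxd1, the paralogue-1 gene of the Hoxd cluster, was at 4.49, 9.51 and 9.92 CPM in LacZ- and 7.03, 11.4 and 13.9 CPM in LacZ+ libraries. It was at 0.0607, 2.29 and 1.82 CPM in ENG+FDG-, at 0.585, 1.33 and 1.09 CPM in ENG+FDG+, and at 4.92, 7.12 and 10.1 CPM in ENG-FDG+ libraries. The ENG+ fractions lay below all FLK1+ libraries, while ENG-FDG+ overlapped them. The mean difference was −2.10 ± 0.47 log2 (adjusted p = 0.00357).

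Central genes held most of the rises. Hoxb5, known as a marker of long-term blood stem cells in the adult mouse, was at 0.982, 2.49 and 4.91 CPM in LacZ- and 5.88, 3.4 and 7.18 CPM in LacZ+ libraries. In HEI cells it was at 32.9, 34.8 and 28 CPM (ENG+FDG-), 39.3, 34.8 and 27.1 CPM (ENG+FDG+) and 14.3, 30.7 and 23.8 CPM (ENG-FDG+). Every HEI library was above every FLK1+ library, and Hoxb5 had the largest rise among the members, 2.89 ± 0.34 log2 or 7.44-fold (adjusted p = 2.73e-05). A stretch of 3.59% of its exons is shared with the antisense gene Hoxb5os.

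Hoxb4, known for expanding blood progenitors when overexpressed, was at 0.701, 2.95 and 4.54 CPM in LacZ- and 2.11, 4.8 and 8.01 CPM in LacZ+ libraries. It was at 11.3, 24.9 and 20.1 CPM in ENG+FDG-, at 12.9, 22.3 and 21.5 CPM in ENG+FDG+, and 15.4, 16 and 12.9 CPM in ENG-FDG+ libraries. The groups did not overlap, and the rise was 2.24 ± 0.41 log2 (4.73-fold, adjusted p = 0.000781). Replicate 1 was the lowest library of 4 of the 5 groups.

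Hoxd8 was at 1.96, 6 and 7.79 CPM in LacZ- and 6, 3.7 and 6.16 CPM in LacZ+ libraries. Its HEI levels were 9.4, 21.7 and 27.1 CPM (ENG+FDG-), 8.91, 17.6 and 17.8 CPM (ENG+FDG+) and 8.82, 34 and 37.2 CPM (ENG-FDG+). Replicate 1 was low in each HEI fraction yet still above all FLK1+ libraries, and the rise was 1.90 ± 0.41 log2 (adjusted p = 0.00275). No annotated exon of another gene overlaps Hoxd8.

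Hoxb8, which blocks differentiation of myeloid progenitors when overexpressed, was at 0.351, 0.461 and 0.927 CPM in LacZ- and 0.894, 0.8 and 1.03 CPM in LacZ+ libraries. It was at 1.09, 2.38 and 3.03 CPM in ENG+FDG-, at 1.3, 2.57 and 1.49 CPM in ENG+FDG+, and 1.36, 1.83 and 2.22 CPM in ENG-FDG+ libraries. The groups did not overlap, although the lowest HEI library (1.09) was near the highest FLK1+ library (1.03), and the rise was 1.39 ± 0.35 log2 (adjusted p = 0.00664).

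Hoxd4 was at 0.841, 0.0923 and 1.2 CPM in LacZ- and 0.575, 0.4 and 0.205 CPM in LacZ+ libraries. Its HEI values were 0.91, 1.67 and 1.39 CPM (ENG+FDG-), 1.3, 1.43 and 1.59 CPM (ENG+FDG+) and 2.38, 2.21 and 1.45 CPM (ENG-FDG+). Replicate 3 of LacZ- (1.2 CPM) lay within the HEI range, and the rise was 1.52 ± 0.44 log2 (adjusted p = 0.0147). Hoxd4 shares 52.3% of its exon bases with other annotated genes, among them Hoxd3 (62.8% shared), so that the split of reads between the 2 genes is uncertain. The other central genes tested, Hoxb6 (−0.67 ± 0.43) and Hoxb7 (0.73 ± 0.51), did not pass (adjusted p = 0.25 and 0.294).

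Of the posterior genes, Hoxb9 was at 0.21, 0.646 and 0.927 CPM in LacZ- and 0.511, 0.8 and 0.924 CPM in LacZ+ libraries. In HEI cells it was at 3.94, 1.15 and 1.47 CPM (ENG+FDG-), 3.9, 1.71 and 2.09 CPM (ENG+FDG+) and 1.95, 0.673 and 0.852 CPM (ENG-FDG+). Replicate 1 was the high library of every HEI fraction, and ENG-FDG+ overlapped the FLK1+ groups in its other libraries. The rise was 1.5 ± 0.45 log2 (adjusted p = 0.0187). In replicates 2 and 3 alone, where 73.7% of all tested genes were called, it was 0.68 and not called (adjusted p = 0.0789).

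Hoxd13, at the posterior end of its cluster and known from limb and genital patterning, was at 2.59, 3.41 and 3.71 CPM in LacZ- and 2.49, 3.2 and 4.11 CPM in LacZ+ libraries. Its HEI values were 0.546, 0.264 and 0.346 CPM (ENG+FDG-), 0.13, 0.476 and 0.397 CPM (ENG+FDG+) and 4.33, 0.289 and 0.511 CPM (ENG-FDG+). Of the 9 HEI libraries, 8 were below all FLK1+ libraries and replicate 1 of ENG-FDG+ was above them all. The fall was −2.41 ± 0.52 log2 (adjusted p = 0.00249), or −3.08 without that library.

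Hoxa13 had the same outlying library with smaller differences. It was at 0.771, 1.66 and 1.48 CPM in LacZ-, 0.511, 2 and 1.64 CPM in LacZ+, 1.52, 0.264 and 0.0866 CPM in ENG+FDG-, at 0.585, 0.857 and 0.596 CPM in ENG+FDG+, and 1.95, 0 and 0 CPM in ENG-FDG+ libraries. It was not called (−1 ± 0.79 log2, adjusted p = 0.351) but passed without replicate 1 of ENG-FDG+ (−3, adjusted p = 0.00917). Hoxd9, the second gene of its cluster by length-scaled level, was at 11, 7.57 and 8.16 CPM in LacZ-, 12.2, 4.1 and 6.06 CPM in LacZ+, 3.46, 7.58 and 7.1 CPM in ENG+FDG-, at 3.9, 3.14 and 5.37 CPM in ENG+FDG+, and 13.7, 5.87 and 10.5 CPM in ENG-FDG+ libraries. It was not called (−0.37 ± 0.30 log2, adjusted p = 0.359). Hoxd10 differed by 0.97 ± 0.43 log2 (adjusted p = 0.0942) and was not called. It passed with the replicate number as a block (1.02, adjusted p = 0.0218), under which 12 members were called beside 66.2% of all tested genes, in replicates 2 and 3 alone (1.42, adjusted p = 0.00589) and without replicate 2 of ENG+FDG+.

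Hoxd10 was at 1.26, 0.554 and 0.649 CPM in LacZ-, 1.66, 0.4 and 1.03 CPM in LacZ+, 1.76, 2.2 and 2.16 CPM in ENG+FDG-, at 1.56, 0.381 and 1.89 CPM in ENG+FDG+, and 3.39, 1.25 and 2.39 CPM in ENG-FDG+ libraries, so the groups overlapped. In all, groups did not overlap for 4 members that were higher in HEI libraries (Hoxb4, Hoxb5, Hoxb8 and Hoxd8) and 3 that were lower (Hoxb1, Cdx2 and Cdx4). Among all tested genes 8.58% and 9.57% had groups apart in these directions.

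**Figure D2:**
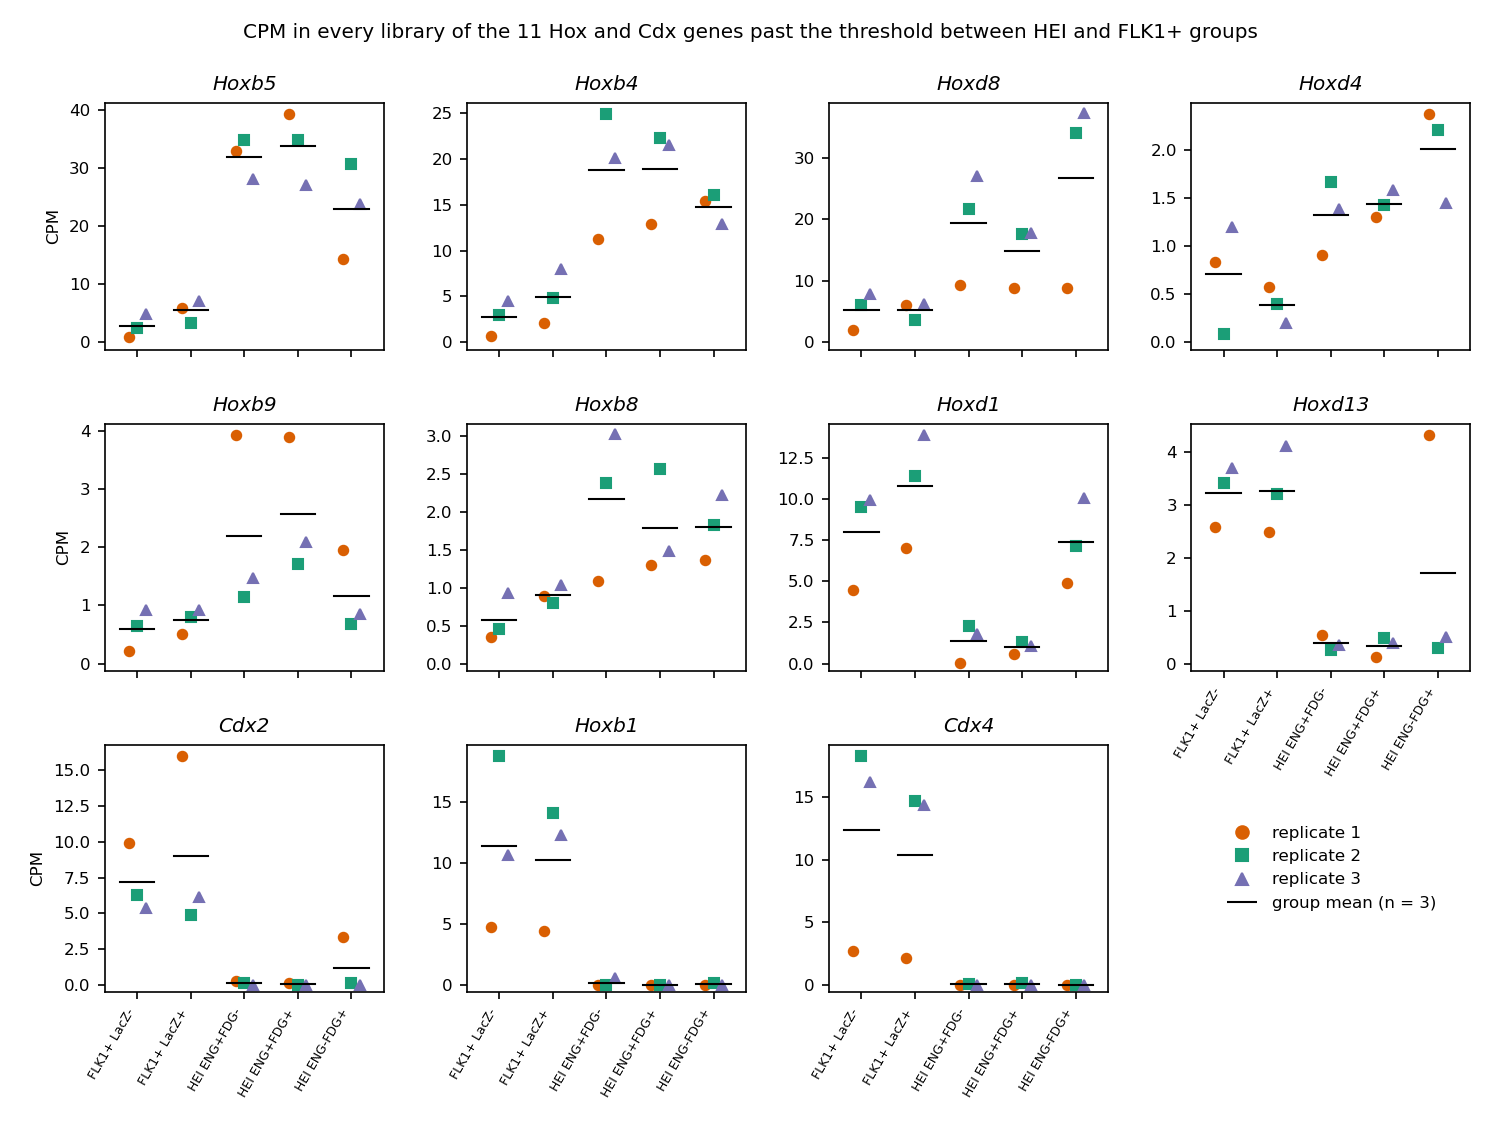
CPM in each of the 15 libraries for the 11 members past the threshold between HEI and FLK1+ groups, with 1 symbol per replicate number and a line at each group's mean. Hoxb4, Hoxb5, Hoxb8 and Hoxd8 have all HEI points above all FLK1+ points, and Cdx4, Hoxb1 and Cdx2 have all HEI points below. In Hoxd13 the replicate 1 point of ENG-FDG+ (4.33 CPM) is above every FLK1+ point.

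**Figure D3:**
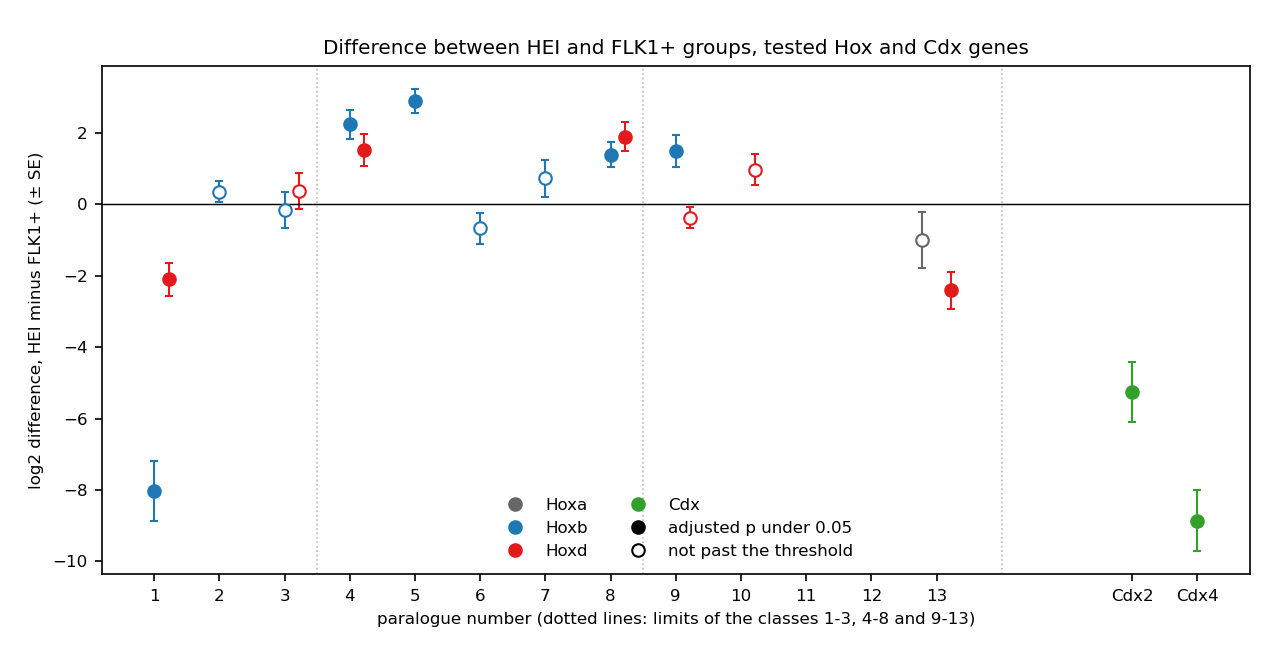
Log2 difference between HEI and FLK1+ groups (± SE) for 19 of the 20 tested members, by paralogue number and coloured by cluster, with filled points past an adjusted p of 0.05. Filled rises lie at paralogue numbers 4, 5, 8 and 9, and filled falls at numbers 1 and 13 and in the Cdx genes.

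The untested genes were few in counts at both stages. Hoxd11 had 56 counts in FLK1+ and 7 in HEI libraries, a scaled ratio of 12.3 (5.57 to 31.9). Hoxc5 had 14 counts in FLK1+ libraries and none in the 9 HEI libraries (lower 95% limit of the scaled ratio 5.08, counting error only). With no filter on low counts, Cdx1, Hoxc5 and Hoxd11 passed as lower in HEI cells, which brought the calls to 14 beside 27.4% of the genes then tested. In DESeq2 the adjusted p was 0.0475 for Cdx1 and 8.04e-05 for Hoxd11, but 0.283 for Hoxc5, which did not pass. Hoxa2 to Hoxa11 had at most 67 counts each over all 15 libraries, and Hoxb13 had 1. Hoxc4 had at most 10 counts in any library, Hoxc6 at most 5, Hoxc13 at most 4 and Hoxc12 at most 2. Of the tested members that were not called, Hoxb2 ranged from 3.92 to 14.8 CPM over the libraries, Hoxd3 from 0.371 to 5.43, Hoxb6 from 0.561 to 4.52 and Hoxb7 from 0.421 to 3.48 CPM.

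For the regions just upstream of these genes, RefSeq starts (GRCm38.p6) were used for 24 members. Among them were 9 of the 11 called ones, without Hoxb5 and Hoxb9. Cdx1 was left out of this search. In the 250 bases before the start, 2 short words were searched on both strands: TTTATG, the core that CDX factors bind, and TGATNNAT, bound by HOX proteins together with PBX partners. They occurred in 10.8% and 7.68% of 32851 mouse promoters of that length. The 4 promoters below are of members that moved in opposite directions: Hoxb8 and Hoxd4 rose and are the called members with the CDX core, Hoxb1 fell and has a PBX-HOX word, and Cdx4 fell and has neither. Capitals mark the matched letters, which do not overlap each other.
Hoxb8, chr11:96281655-96281904, plus strand: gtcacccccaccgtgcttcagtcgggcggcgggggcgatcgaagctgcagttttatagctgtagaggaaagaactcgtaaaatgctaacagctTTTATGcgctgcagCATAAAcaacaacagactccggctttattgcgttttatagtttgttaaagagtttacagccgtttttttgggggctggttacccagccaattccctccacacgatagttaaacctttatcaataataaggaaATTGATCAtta
Hoxd4, chr2:74721728-74721977, plus strand: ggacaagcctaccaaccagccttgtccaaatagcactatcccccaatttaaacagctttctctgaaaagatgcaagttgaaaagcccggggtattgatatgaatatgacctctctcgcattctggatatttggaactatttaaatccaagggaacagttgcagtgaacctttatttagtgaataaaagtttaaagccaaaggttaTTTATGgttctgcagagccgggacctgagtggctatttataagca
Hoxb1, chr11:96365508-96365757, plus strand: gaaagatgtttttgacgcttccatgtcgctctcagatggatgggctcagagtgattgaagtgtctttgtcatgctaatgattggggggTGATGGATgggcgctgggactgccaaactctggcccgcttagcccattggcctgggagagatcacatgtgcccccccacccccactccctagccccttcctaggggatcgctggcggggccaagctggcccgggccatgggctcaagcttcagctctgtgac
Cdx4, chrX:103321148-103321397, plus strand: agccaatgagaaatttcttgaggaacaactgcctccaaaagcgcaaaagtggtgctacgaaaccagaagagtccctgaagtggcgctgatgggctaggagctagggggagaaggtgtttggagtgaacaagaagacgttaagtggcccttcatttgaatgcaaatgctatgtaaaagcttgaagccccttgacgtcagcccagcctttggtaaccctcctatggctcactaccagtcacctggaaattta

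Hoxb8 carried the CDX core once on each strand, 157 to 152 and 143 to 138 bases before the start, and the PBX-HOX word 11 to 4 bases before it. In Hoxd4 the core lay 45 to 40 bases before the start. The core was also found in Hoxd3, which was not called (0.38 log2), and in the untested Hoxa7 and Hoxd11. For Hoxa7 and Hoxd11 the scaled ratios of FLK1+ to HEI counts were 3.2 and 12.3. The PBX-HOX word was also found in the untested Hoxa2 and Hoxd11. The word in Hoxb1, 162 to 155 bases before its start, belongs to a stretch of the Hoxb1 upstream region known for joint binding of HOX and PBX proteins. Neither word was in this window of Hoxb4, Hoxd8, Hoxd1, Hoxd13, Cdx2 or Cdx4. None of the 24 members searched, which do not include Cdx1, held a retinoic acid response element of the DR5 or DR2 type in this window (0.0883% and 0.174% of all promoters). These are matches of letters, and binding was not measured.

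Within the FLK1+ cells, LacZ+ was compared with LacZ-, which asks what sets apart the cells in which the full reporter was active. No member was called (0 of 20; 0% of all tested genes, with 170 genes and 0 members at an unadjusted p under 0.05, edgeR; DESeq2 called 0 members and 8 genes, 0.0668% of those it tested). Of the 20 differences 16 were positive, as were 7845 of those of all 13662 tested genes. The median was 0.33 log2 against 0.04 over all tested genes. Hoxb5 (5.49 against 2.80 CPM, 0.98 ± 0.49 log2), Hoxb4 (0.86 ± 0.60) and Hoxb7 (0.84 ± 0.79) had the largest positive values. Each was positive within all 3 replicate numbers, but unevenly. In replicates 1 to 3, Hoxb5 differed by 2.4, 0.42 and 0.53 log2, Hoxb4 by 1.39, 0.67 and 0.8, and Hoxb7 by 0.34, 0.1 and 1.19. Of the 20 tested members, Hoxb2 was the one whose groups stood apart (7.64 ± 1.78 against 5.14 ± 0.886 CPM, SD, n = 3; 0.57 ± 0.46 log2), where 2.44% of all tested genes were apart and higher. Cdx4 (−0.26 ± 0.84 log2), Cdx2 (0.33 ± 1.08) and Hoxb1 (−0.15 ± 0.88) had standard errors larger than their differences.

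Within the ENG+ HEI cells, FDG+ was compared with FDG-, the same question for the -8 kb reporter. Again no member was called (0 of 20; 0% of all tested genes, with 39 genes and 0 members at an unadjusted p under 0.05, edgeR; DESeq2 also called 0 members). The differences were positive in 10 of 20 members and in 6346 of all 13662 tested genes, with medians of −0.06 and −0.01 log2. Hoxb5 was at 33.7 against 31.9 CPM (0.08 ± 0.46 log2), Hoxb4 at 18.9 against 18.8 CPM (0.01 ± 0.57) and Hoxd8 at 14.8 against 19.4 CPM (−0.39 ± 0.59). For Hoxb1, Cdx2 and Cdx4 both fractions were at or near 0, so no fold is given. The difference between the FDG effect and the LacZ effect was tested directly, and 0 of 20 members passed, with 0 at an unadjusted p under 0.05. Over all tested genes 0 passed as well.

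Among the FDG+ HEI cells, ENG+ was compared with ENG-, and the ENG-FDG+ fraction was also compared with ENG+FDG-. Both comparisons share the 3 ENG-FDG+ libraries, so their values are given side by side and are not independent of each other. By size the largest differences among tested members were those of Cdx2 (−4.19 and 3.14 log2), which rested on 1 library. Hoxd1 had the lowest adjusted p of the members in both comparisons. Hoxd1 was at 4.92, 7.12 and 10.1 CPM in ENG-FDG+ libraries, above all 6 ENG+ libraries (0.0607 to 2.29 CPM), with differences of −2.88 ± 0.80 log2 (ENG+FDG+ minus ENG-FDG+) and 2.42 ± 0.78 log2 (ENG-FDG+ minus ENG+FDG-). Neither passed without a block (adjusted p = 0.181 and 0.265). With the replicate number as a block both passed (−2.90, adjusted p = 0.00318, and 2.64, adjusted p = 0.0047), and both also passed in DESeq2 (adjusted p = 0.00825 and 0.0416), which called 2.88% and 2.91% of the genes it tested.

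All 7 tested Hoxd genes had lower means in ENG+FDG+ than in ENG-FDG+ cells. The median was −1.28 log2 against −0.05 over all 13662 tested genes, of which 6194 had a positive difference. All 7 had higher means in ENG-FDG+ than in ENG+FDG- cells (median 0.73 against 0.05), where 7443 of all tested genes had a positive difference. Genes of 1 cluster read in the same libraries are not independent of each other. Hoxd9 was at 10 against 4.14 CPM (−1.28 ± 0.47 log2, adjusted p = 0.358) and Hoxd3 at 2.85 against 0.965 CPM (−1.55 ± 0.77, adjusted p = 0.597), and for both the 2 FDG+ fractions did not overlap. In Hoxd13 the difference (−2.37 ± 0.87) rested on replicate 1 of ENG-FDG+ and was −0.30 without it. Leaving out that library also brought Hoxd3 to −0.67 log2 in this comparison. Against ENG+FDG- cells it brought Hoxd10 from 0.20 to −0.19 log2 and Hoxd13 to 0, while the other 5 Hoxd genes kept positive differences. In Hoxd8, by contrast, that library had the low value of its fraction (8.82 CPM beside 34 and 37.2). In all, 3 of 20 members were apart and lower in ENG+FDG+ cells, where 5.99% of all tested genes were. Against ENG+FDG- cells, Hoxd1 was apart and higher in ENG-FDG+ cells (6.18% of all tested genes).

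**Figure D4:**
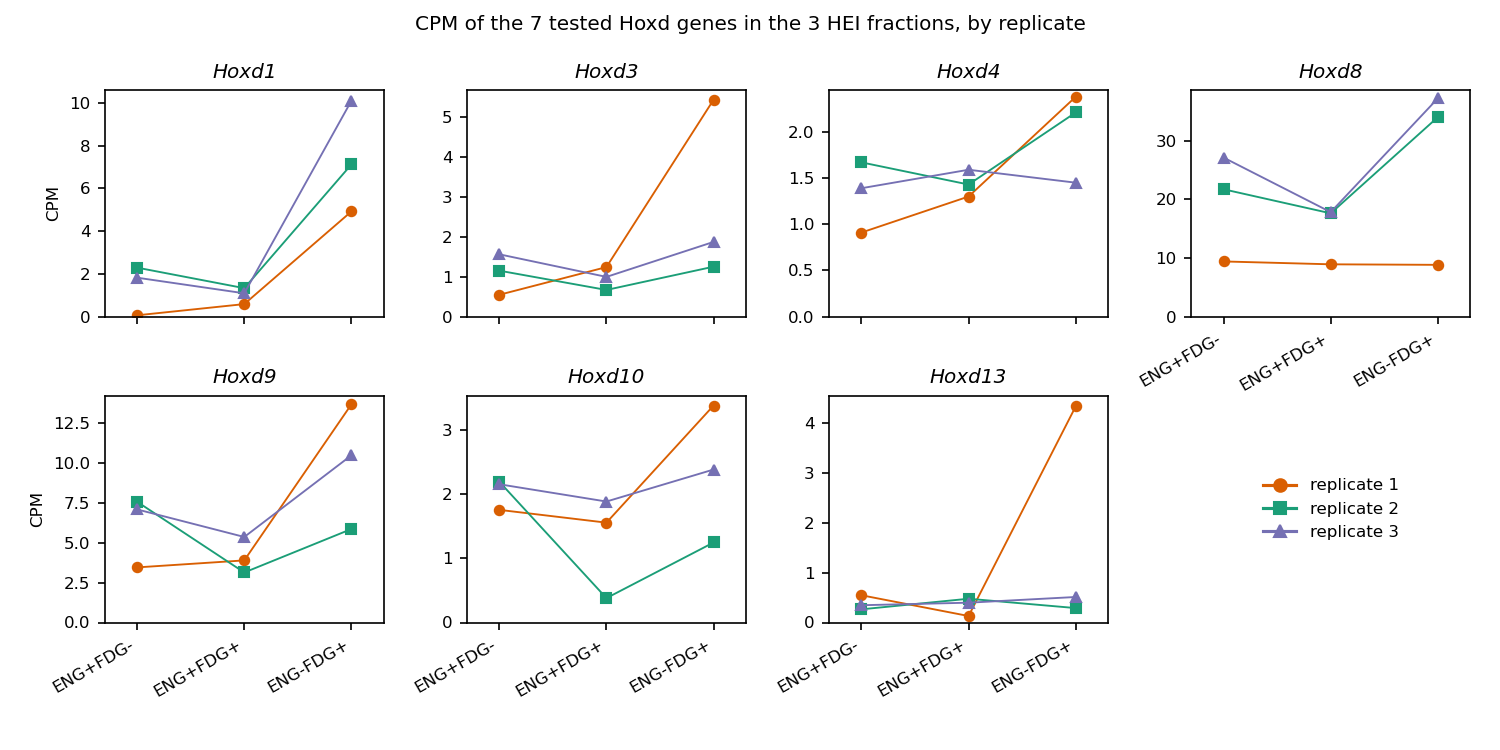
CPM of the 7 tested Hoxd genes in the 3 HEI fractions, with 1 line per replicate number. Hoxd1 is higher in ENG-FDG+ than in either ENG+ fraction in all 3 replicates, whereas in Hoxd13 the high ENG-FDG+ value (4.33 CPM) is that of replicate 1.

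By count, 0 of 20 members were called for ENG+FDG+ against ENG-FDG+, where 0.278% of all tested genes were (edgeR; 4 members at an unadjusted p under 0.05). With the block 3 were called (10.8% of all tested genes): Hoxd1, Hoxb3 (1.06 ± 0.23 log2, adjusted p = 0.0103) and Cdx2 (−3.95 ± 1.19, adjusted p = 0.0479). For ENG-FDG+ against ENG+FDG-, 0 of 20 were called (0.351% of all tested genes; 3 members at an unadjusted p under 0.05), and with the block Hoxd1 was (11.1%). In replicates 2 and 3 alone 7 and 5 members were called in these comparisons, beside 29.3% and 27.1% of all tested genes. Cdx2 rested on 1 library, 39 counts in replicate 1 of ENG-FDG+. Hoxb3 was at 7.52, 25.1 and 24.7 CPM in ENG+FDG-, at 11.5, 31.9 and 31.2 CPM in ENG+FDG+, and 3.22, 21.5 and 16 CPM in ENG-FDG+ libraries, lowest in ENG-FDG+ within each replicate number. Of the exon bases of Hoxb3, 52.9% also belong to the antisense gene Hoxb3os, and whether counting used strand is not known here.

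Haematopoietic markers moved with this contrast: the 8 genes summed to 501 to 783 CPM in ENG-FDG+ libraries, 170 to 271 CPM in ENG+FDG- libraries and, in the ENG+FDG+ fraction, 195 to 220 CPM, with Ptprc at 0 in 2 of the 3 ENG-FDG+ libraries. Endothelial markers moved the other way (2040 to 2590 CPM against 4030 to 5690 CPM). Their part in the Hoxd1 values was not tested. Among the axial and posterior signals, the homeobox gene Nkx1-2 was the 1 of 19 tested genes called, lower in ENG+FDG+ than in ENG-FDG+ cells (−3.42 log2, adjusted p = 0.0436). It was at 1.43, 1.05 and 1.79 CPM in ENG+FDG+ and at 31, 6.54 and 8.43 CPM in ENG-FDG+ libraries. Replicate 1 of ENG-FDG+, the library that stood apart, was thus by far the highest. Over all tested genes 0.278% were called in this comparison.

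The Hoxc cluster was all but silent except in that same library. The 9 Hoxc genes together had 194 counts in replicate 1 of ENG-FDG+. They had 8 to 31 counts in each FLK1+ library and 0 to 7 counts in each other HEI library. Hoxc10 had 7, 1 and 5 counts in LacZ-, 9, 1 and 10 in LacZ+, 4, 0 and 1 in ENG+FDG-, 1, 0 and 0 in ENG+FDG+, and 58, 0 and 0 in ENG-FDG+ libraries. Hoxc9 had 2, 0 and 3 counts in LacZ-, 1, 2 and 5 in LacZ+, 1, 0 and 0 in ENG+FDG-, none in ENG+FDG+, and 75, 0 and 0 in ENG-FDG+ libraries. Both were thus at 10 counts or fewer everywhere but in that 1 library, and Hoxc8 followed with 48 counts there and at most 9 elsewhere. Hoxa11 had 40 counts there and at most 6 elsewhere, while 11 of the 40 detected members had their highest count in it. Hoxc9, Hoxc8 and Hoxa11 are posterior or trunk-level genes. Replicates 2 and 3 of ENG-FDG+ had 2 and 0 Hoxc counts.

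**Figure D5:**
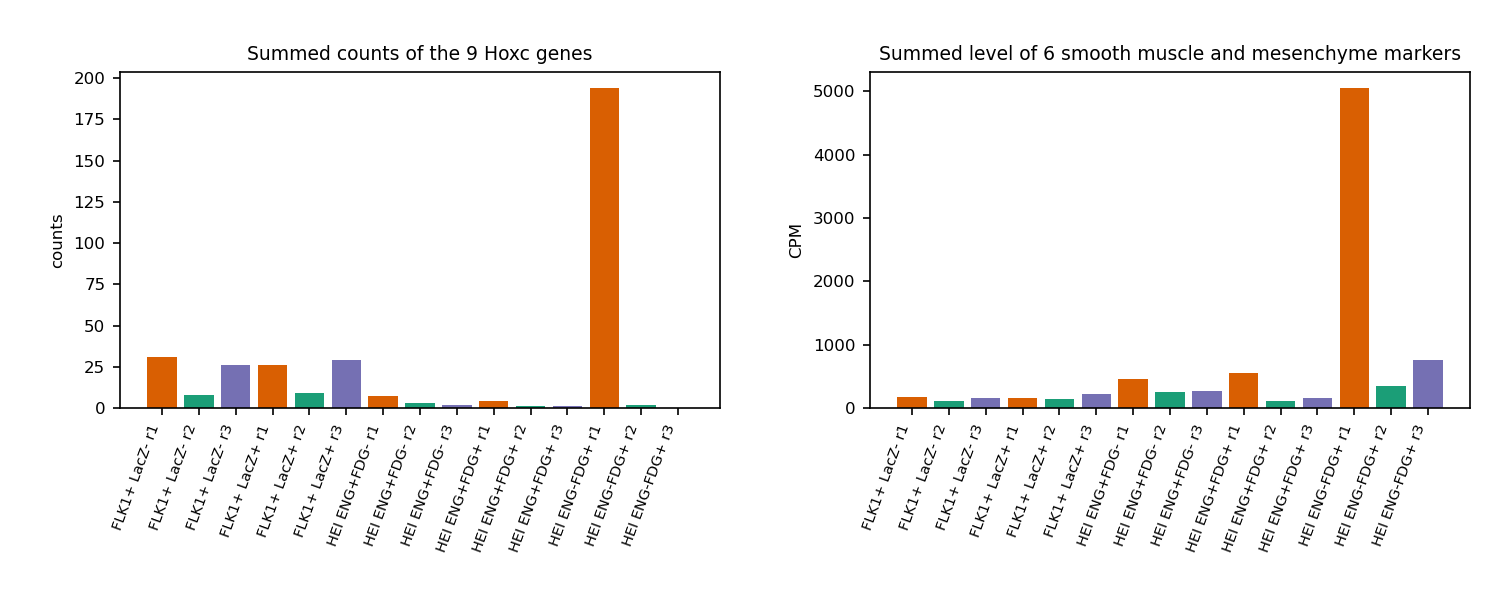
Summed counts of the 9 Hoxc genes (left) and summed CPM of 6 smooth muscle and mesenchyme markers (right) in each library, coloured by replicate number. Replicate 1 of ENG-FDG+ has the tallest bar in both panels, 194 counts and 5050 CPM.

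All 6 markers of smooth muscle and mesenchyme (Acta2, Tagln, Col1a1, Col1a2, Postn and Pdgfrb) had their highest level in that library, Acta2 at 3600 CPM against at most 477 CPM elsewhere. The summed level was 111 to 178 CPM in LacZ-, 139 to 220 in LacZ+, 253 to 456 in ENG+FDG-, 115 to 558 in ENG+FDG+ and 344 to 5050 CPM in ENG-FDG+ libraries. The lateral mesoderm gene Hand1 was at 643 CPM there and at 22.5 and 37.1 CPM in the other ENG-FDG+ libraries. Neural markers also had their highest sum there, 26.8 CPM, of which Tubb3 was 25 CPM. The next highest neural sum was 18.6 CPM, in replicate 1 of LacZ+. The part of these genes in the Hoxc, Hoxa11, Hoxd13 and Cdx2 counts was not tested. Without the library, the HEI against FLK1+ comparison called 13 members (6 higher and 7 lower) beside 40.9% of all tested genes. Cdx1 and Hoxa13 were added to the falls. The 4 other comparisons called no member. Of the 14024 genes then tested, the LacZ and FDG comparisons called 0. The comparisons of ENG-FDG+ with ENG+FDG+ and with ENG+FDG- called 34 and 43 genes.

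Genes that work with HOX proteins or act on the clusters were read from 5 further lists. Of 11 TALE homeodomain genes, whose proteins bind DNA together with HOX factors or counter them, 1 rose and 5 fell between FLK1+ and HEI cells, where 17% of all tested genes were higher and 20.3% lower in HEI cells. Meis1, a partner of HOX proteins in blood stem cells, was at 0.911 to 4.21 CPM in FLK1+ and at 14.7 to 38.5 CPM in HEI libraries (3.38 ± 0.29 log2, adjusted p = 2.19e-06), so the groups did not overlap. Pknox2 (−2.08 ± 0.39 log2), Tgif1 (−1.24 ± 0.21) and Meis3 (−1.21 ± 0.38) fell.

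The list of 21 axial and posterior signals held genes of primitive streak and tail bud, and the retinoic acid receptor genes. Some of their products act upstream of Cdx and posterior Hox genes. Of the 21, 19 were tested, 15 fell and none rose, where 20.3% of all tested genes were lower and 17% higher. The median was −3.87 log2, against −0.11 over all tested genes. The streak gene T fell from a mean of 183 to 0.428 CPM (−8.94 ± 0.83 log2), the Wnt target Sp5 from 13.5 to 0.0396 CPM (−9.08 ± 0.99) and the presomitic gene Msgn1 from 12.4 to 0.028 CPM (−8.34 ± 0.60). Fgf8 was at 36.8, 1.2 and 2.69 CPM in LacZ- and 36.6, 0.8 and 0.821 CPM in LacZ+ libraries, and it had no count in any HEI library. Sp5 was likewise highest in replicate 1 of both FLK1+ groups (38.6 and 23.5 CPM, against 2.67 to 7.94 CPM in the other 4 libraries). The retinoic acid receptor genes Rara, Rarb and Rarg and the growth factor gene Gdf11 were not called. Pluripotency markers were among the other genes that were lower in HEI cells, the 4 genes summing to 12.1 to 91.8 CPM in FLK1+ and at most 1.02 CPM in HEI libraries. The 8 paraxial and lateral mesoderm markers did not move together: Hand1, most of their sum, was at 383 to 672 CPM in FLK1+ libraries and at 22.5 to 108 CPM in all HEI libraries but replicate 1 of ENG-FDG+ (643 CPM). Hand2 was at 5.85 to 17.6 CPM in FLK1+ and at 38.4 to 65.4 CPM in the ENG+ HEI libraries. Their part in the Cdx and Hoxb1 falls was not tested.

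Genes for the chromatin proteins that hold Hox clusters silent or active gave mixed counts. Of 19 polycomb genes 4 rose and 7 fell (median −0.56 log2). Within the Cbx family, whose proteins read the methyl mark on H3K27, Cbx2 (−1.68 ± 0.19 log2) and Cbx7 (−1.63 ± 0.50) fell. Cbx7 was at 21.6 and 34.2 CPM in replicate 1 of the FLK1+ groups and at 3.69 to 6.4 CPM in their other libraries, and in replicates 2 and 3 alone it was not called (−0.31 log2, adjusted p = 0.164). Bmi1 (1.21 ± 0.41), a subunit of the ubiquitin ligase complex, rose. Of 12 trithorax-type and H3K27 demethylase genes none rose and 4 fell, Kdm6b (−0.95 ± 0.20), Psip1 (−0.83 ± 0.24), Dpy30 (−0.71 ± 0.15) and Wdr5 (−0.47 ± 0.15). These shares stand beside 37.3% of all tested genes. With the replicate block, beside 66.2% of all tested genes, 5 polycomb genes rose and 12 fell, and in the trithorax-type list 1 rose and 6 fell.

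Of the noncoding RNAs in the clusters and the genes flanking them, 11 of 25 in the table were tested, with 3 rises and 2 falls beside 37.3% of all tested genes, or 5 and 3 with the replicate block. At the posterior flank of the Hoxa cluster Evx1, a homeobox gene of the primitive streak, fell from 31.8 to 92.4 CPM in FLK1+ to at most 1.44 CPM in HEI libraries (−7.46 ± 0.46 log2, adjusted p = 1.62e-07). On the opposite flank Skap2, an adaptor protein of blood cells, rose (12.2 to 56.3 CPM in the means, 2.20 ± 0.24 log2, adjusted p = 1.55e-05). Hoxd3os1, antisense within the Hoxd cluster, rose from a mean of 0.194 to 0.831 CPM (2.14 ± 0.70, adjusted p = 0.0281), and 6720416L17Rik, for RefSeq an older symbol of the Hoxd antisense gene Haglr, fell (−2.22 ± 0.50). In the LacZ and FDG comparisons no gene of these lists was called by edgeR with or without the block.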

How the data were processed

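Per the labels' protocols, RNA from the sorted fractions went through amplification (Nugen) before Illumina library construction. The deposited values are raw counts per gene symbol, and the submitters' processing notes name STAR 2.4.0, HTSeq 0.6.1 and mm10. Which annotation, strand setting or filter was used is not given in the sources used here, so counts of overlapping or antisense genes are uncertain. Of 24061 lines, 27 had a date for a symbol and were left out.

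Genes were filtered with filterByExpr (13662 kept), scaled with TMM factors and fitted with 1 mean per group in all 15 libraries (edgeR 4.0.16, limma 3.58.1, R 4.3.3, robust quasi-likelihood test). P-values are Benjamini-Hochberg adjusted over all tested genes, with a threshold of 0.05, and ± after a log2 value is its SE. CPM is edgeR's, from the counts of tested genes after TMM scaling. Length-scaled levels divide it by exon union length (GENCODE M21, GRCm38, the build of mm10), and all 42 members matched. Count ratios have exact 95% intervals that cover counting error only. Promoters are RefSeq's.

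Same-numbered libraries of different groups deviated together from their group means (correlation 0.432 to 0.867). Replicate 1 stood apart in every group, and correlations between libraries of different number in different groups were not computed. The correlations thus cannot show that replicates 2 and 3 pair by number, and the pairing was not established. A fit with the number as a block was an alternative. The other alternatives were DESeq2 1.42.0, RLE factors, other count filters, only the groups compared, replicates 2 and 3 alone, and each library left out. Scripts were tested on simulated data.

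Full values are given for each member called in 1 of the 5 comparisons, or only with the block, for the 2 highest length-scaled members of each cluster and for all Cdx genes. The other lists name up to 4 called genes each. Some results that these rules name are not reported here. Members, lists and rules were chosen with earlier results of these data known.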

Additional observations from a re-analysis of the deposited data

How the results depend on the processing

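The 11 member calls between HEI and FLK1+ groups became 11 to 15 under the other settings and 11 to 13 with 1 library left out, within 1.5 times of the main count, and no member named here changed sign past the threshold. Hoxb9 was the called member that lost its call, in replicates 2 and 3 alone (0.68 log2, adjusted p = 0.0789, or 0.0868 with the replicate block). In the LacZ and FDG comparisons 0 members were called in every setting run, where 0 to 32 and 0 to 128 of all tested genes were called. For ENG+FDG+ against ENG-FDG+ the count of 0 became 1 in DESeq2, 3 with the replicate block and 7 in replicates 2 and 3, with or without the block. For ENG-FDG+ against ENG+FDG- it became 1, 1 and 5. With 1 library left out, both stayed at 0 to 0. Numbers of all tested genes called moved more: 5096 became 9039 with the replicate block between stages, and 38 and 48 became 1482 and 1515 in the ENG-FDG+ comparisons. The biological coefficient of variation was 0.477 without and 0.199 with the block, and the cause of the difference between replicate 1 and the others was not tested. The block changed no other call of a member than those given beside the results. Of the 20 genes of the Hoxa and Hoxc clusters, 18 had too few counts to be tested. Whether more depth would change that was not tested.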
